A study of Mus musculus with 4 samples.

Results

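Leukocyte integrins were followed here through 10 genes, Itga4, Itga5, Itga6, Itgal, Itgam, Itgax, Itgb1, Itgb2, Itgb3 and Itgb7. Every probe set of the array annotated to exactly 1 of these symbols was taken, which gave 19 probe sets of 20393 with a single symbol, or 10 genes of 12394. The arrays came from bone marrow of Mll-AF4stop knock-in mice, whose Mll-AF4 fusion allele is held silent by a stop until Cre recombinase acts on it. All mice had received 5-FU (5-fluorouracil), which kills cycling blood cells, 5 days before their marrow was infected outside the body. The Cre-GFP group (2 arrays) received a Cre-GFP retrovirus. The control group (2 arrays) received a GFP control retrovirus by the sample labels, whereas the design text of the series names it MIG-Cre. Groups follow the sample labels here. With Cre in both viruses the groups would not differ in fusion activation, and with Cre in 1 virus only, Cre itself and the active fusion cannot be told apart. Cells positive for GFP were sorted 2 days later and grown for 14 days with cytokines that favour lymphoid progenitors, and 20 ng of total RNA was amplified per array. The labels give no age or sex, and they leave unsaid whether replicate arrays stem from different animals or cultures. The p-values below thus measure array-to-array spread alone, which may be technical.

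Integrins are adhesion receptors made of 1 alpha and 1 beta chain, and neither chain reaches the cell surface well without its partner. In blood cells the beta-2 family (Itgb2 with Itgal, Itgam or Itgax) holds leukocytes to Icam proteins, complement fragments and each other. The beta-1 family (Itgb1 with Itga4, Itga5 or Itga6) holds marrow progenitors to Vcam1, fibronectin and laminin of the stroma, and Itga4 with Itgb7 directs lymphocytes to the gut. The chains were therefore grouped as lymphoid (Itgal, Itga4, Itgb7), myeloid (Itgam, Itgax), stromal-binding (Itga5, Itga6, Itgb1, Itgb3) and the shared beta chain Itgb2.

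The integrin probe sets gave small differences of either sign, of which those of Itga6 upward and of a dim Itga4 probe set downward were the largest. Values are RMA intensities on the log2 scale, differences are Cre-GFP minus control with limma's standard error (SE), and n = 2 arrays per group throughout. None of the 19 probe sets passed an adjusted p of 0.05 in limma over all 20393 probe sets, and neither did any other probe set (976, or 4.79%, at an unadjusted p under 0.05). The member differences ran from −0.50 to 0.45, and the 95% interval of all 19 lay inside a 2-fold change, as did 94.5% of all probe sets. For 14 of the 19 it lay inside a 1.5-fold change, against 70.2% of all probe sets. These shares were near those of the whole array and do not show that the groups were equal. At an unadjusted p under 0.05 only 1 member probe set was lower in Cre-GFP (2.42% of all probe sets) and 0 were higher (2.36% of all), which are counts near the background. Leaving out single arrays gave 1 to 3 such members (3 without control 1, 2 without Cre-GFP 2). Over all probe sets 25 passed the adjusted threshold without control 1 and 1 without control 2, none of them a member.

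**Figure D1:**
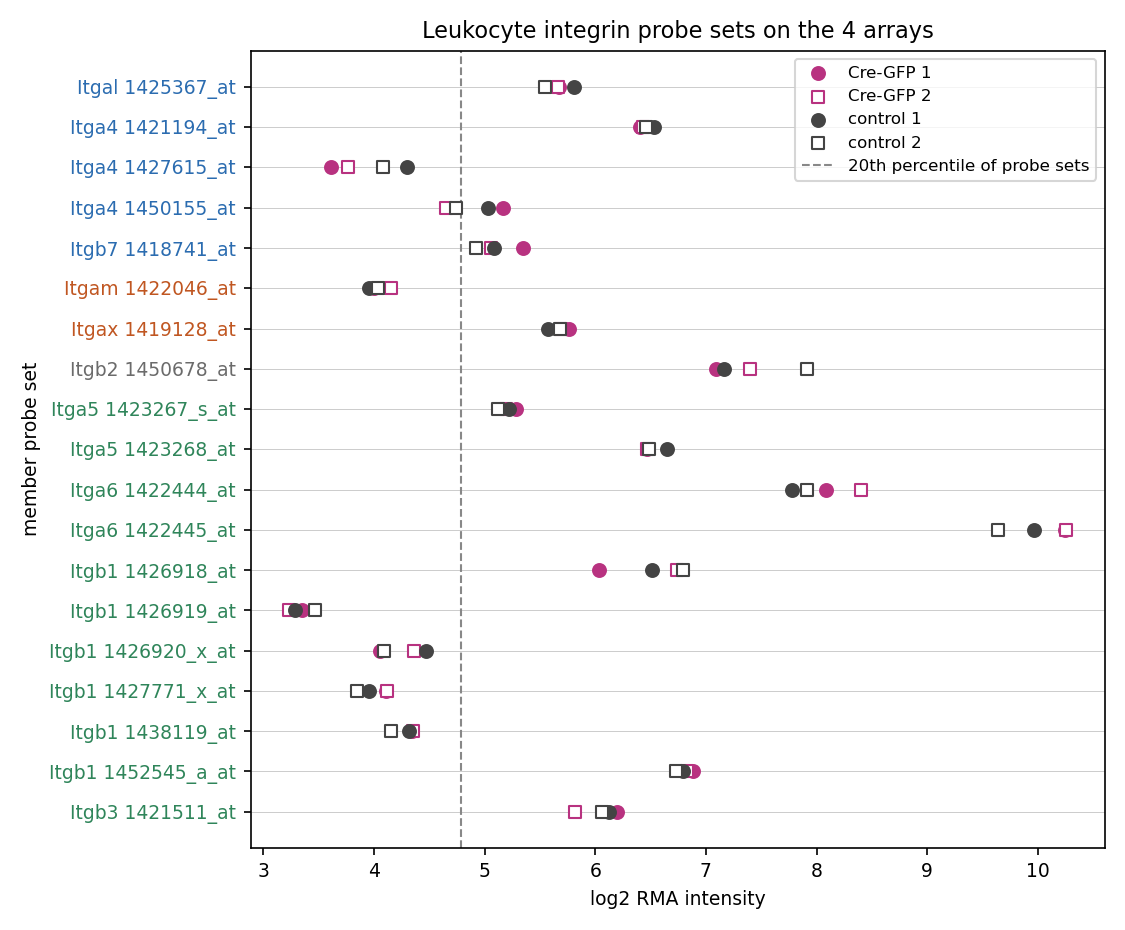
Log2 RMA intensity (x axis) of each of the 19 integrin probe sets (y axis) on the 4 arrays, with label colours for lymphoid (blue), myeloid (orange), shared beta (grey) and stromal-binding (green) chains. In most rows the 4 symbols lie close together, 6 probe sets lie left of the dashed 20th percentile on every array, and both Itga6 rows show the Cre-GFP arrays to the right of the control arrays.

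The largest difference upward belonged to Itga6, the alpha-6 chain that binds laminin with Itgb1 and marks hematopoietic stem and progenitor cells. Its brighter probe set (1422445_at) read 10.25 and 10.25 in the Cre-GFP arrays and 9.97 and 9.64 in the controls. Both Cre-GFP arrays stood above both control arrays, by a difference of 0.45 ± 0.18 (SE, 1.36-fold) with a 95% interval from −0.0020 to 0.90 and an unadjusted p of 0.051 in limma. A second probe set annotated to Itga6 (1422444_at) read 8.08 and 8.40 against 7.78 and 7.92. Here too the groups did not overlap, and the difference was 0.39 ± 0.18 (1.31-fold, unadjusted p of 0.075 in limma). Neither passed over all probe sets (adjusted p = 1 for both in limma). The unadjusted p of the brighter one was 0.043 with dim values raised to the 20th percentile, 0.030 with no intensity trend and 0.038 without control 1, and it went up to 0.27 without control 2. The brighter probe set lay between the 89.2 and 93.1 percentile of its array, well above the dim end of the array. Without control 2 the brighter difference was 0.28, and with control 1 left out it was 0.61. The second probe set differed by 0.23 when Cre-GFP 2 was left out.

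Itga5, the alpha-5 chain of the fibronectin receptor, read 6.47 and 6.47 in the Cre-GFP arrays and 6.65 and 6.48 in the controls on its brighter probe set, a difference of −0.099 ± 0.13. The other Itga5 probe set differed by 0.065 ± 0.11, and the pair thus went in opposite directions at sizes below their errors. Itgb3, the beta-3 chain that pairs with Itgav on myeloid cells and with Itga2b on platelets, read 6.19 and 5.82 against 6.12 and 6.06. Its Cre-GFP arrays enclosed both control arrays, with a difference of −0.088 ± 0.16, or 0.099 without Cre-GFP 2.

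Itgb1, the common beta-1 chain, was covered by 6 probe sets that did not give 1 answer. The brightest (1452545_a_at) read 6.88 and 6.83 in the Cre-GFP arrays and 6.80 and 6.73 in the controls, a difference of 0.092 ± 0.13. Its groups did not overlap, yet the gap between group means was smaller than its error. The next (1426918_at) read 6.03 and 6.73 against 6.51 and 6.79, where Cre-GFP 1 stood lowest and the difference was −0.27 ± 0.25. Leaving out Cre-GFP 1 gave 0.083 and leaving out Cre-GFP 2 gave −0.62. The other 4 stayed under the 20th percentile on all arrays and differed by −0.084 to 0.22, of which 1427771_x_at reached an unadjusted p of 0.053 in limma. Both Itga6 probe sets thus read higher by over 2 times their error, while the brightest of its partner Itgb1 did not exceed its error. That contrast depends on the Itgb1 probe set chosen. The dim 1427771_x_at was also higher by over 2 times its error (0.22 ± 0.089). The dim 1438119_at (0.11 ± 0.099) and 1426918_at, of the opposite sign, differed by slightly more than their errors. The difference between the 2 genes was not tested.

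**Figure D2:**
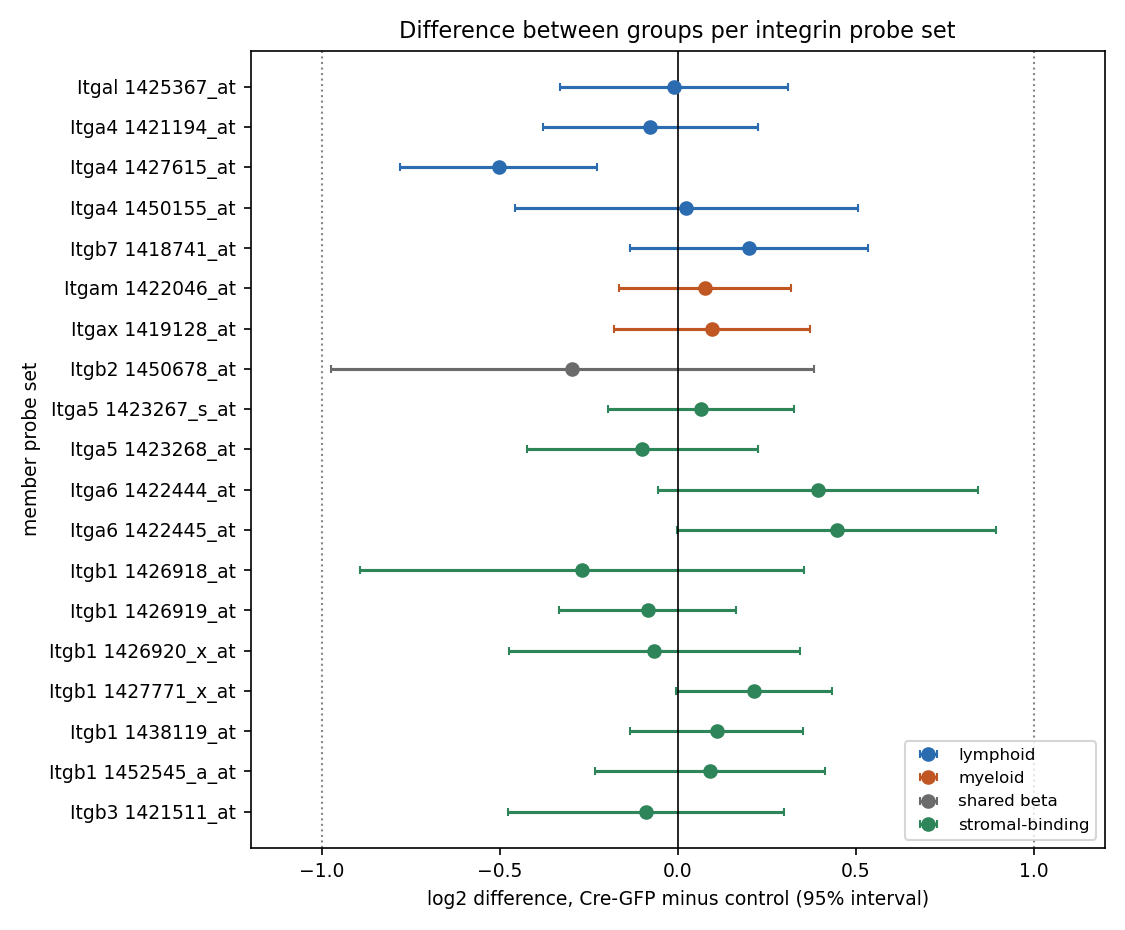
Log2 difference, Cre-GFP minus control (x axis), of each integrin probe set (y axis) with limma's 95% interval as a bar, coloured by chain group. The dotted lines mark a 2-fold change, which none of the 19 intervals reaches, and only that of Itga4 1427615_at leaves out 0.

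Itga4, the alpha-4 chain of lymphocytes and marrow progenitors that binds Vcam1, was read by 3 probe sets. The brightest (1421194_at) read 6.40 and 6.43 in the Cre-GFP arrays and 6.53 and 6.46 in the controls. The groups did not overlap, but the difference was only −0.076 ± 0.12. The probe set 1427615_at read 3.61 and 3.76 against 4.30 and 4.09, lower in both Cre-GFP arrays by −0.50 ± 0.11 (1.42-fold), with an unadjusted p of 0.0045 and an adjusted p of 0.67 in limma. All 4 of these values lay under the 20th percentile of the array, from the 3.51 to the 12.3 percentile. Raising such values to the 20th percentile gave 6.6e-05, an outcome fixed beforehand because all 4 lay under that floor. It does not bear on the difference. The third, 1450155_at, read 5.17 and 4.65 against 5.03 and 4.74, with overlapping groups and a difference of 0.025 ± 0.20. A reading lower by more than its error was thus seen on 1 of 3 probe sets of the gene, the dimmest of them. Since it was the only member probe set under an unadjusted p of 0.05, the promoter of Itga4 is shown beside that of Itgam, a myeloid chain whose probe set also lay under the 20th percentile, as 250 bases before the gene's start from RefSeq (GRCm38.p6).
Itga4, chr2:79255176-79255425, plus strand: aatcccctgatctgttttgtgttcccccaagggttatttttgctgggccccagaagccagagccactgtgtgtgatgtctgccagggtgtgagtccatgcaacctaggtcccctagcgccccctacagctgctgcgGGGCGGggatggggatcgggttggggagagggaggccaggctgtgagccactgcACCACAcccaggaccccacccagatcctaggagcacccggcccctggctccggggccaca
Itgam, chr7:128062390-128062639, plus strand: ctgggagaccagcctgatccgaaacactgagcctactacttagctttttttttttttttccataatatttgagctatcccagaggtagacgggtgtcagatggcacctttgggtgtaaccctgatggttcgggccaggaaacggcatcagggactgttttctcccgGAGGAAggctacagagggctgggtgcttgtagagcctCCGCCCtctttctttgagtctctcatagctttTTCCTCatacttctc
Capitals mark matches on either strand to GAGGAA (a core of Ets factors such as PU.1), TGACAG (Meis), TGTGGT (Runx) and GGGCGG (Sp1), none of which contains another. The Itgam window held 2 matches to GAGGAA, beginning 84 and 15 bases before the start, and 1 to GGGCGG. The Itga4 window held 1 to GGGCGG and 1 to TGTGGT, on the opposite strand. Of 32851 mouse windows of this length, 23.3% held GAGGAA, 15.9% TGACAG, 14.0% TGTGGT and 32.7% GGGCGG. The table held promoters for 6 of the 10 members (also Itga5, Itgax, Itgb1 and Itgb7), and TGACAG was in 0 of the 6 windows. GAGGAA was not particular to the myeloid chains. The stromal-binding chains Itga5 and Itgb1 held 1 match each, and Itgax, the other myeloid chain, held 0, as did Itgb7. A match of letters is no binding site, and no binding was measured.

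Itgal, the alpha chain of LFA-1 on lymphocytes and other leukocytes, read 5.67 and 5.66 in the Cre-GFP arrays and 5.81 and 5.54 in the controls. The control arrays enclosed the Cre-GFP arrays and the difference was −0.010 ± 0.13 (95% interval −0.33 to 0.31), with values of either sign when single arrays were left out. Itgb7, the beta chain that joins Itga4 on gut-homing lymphocytes, read 5.34 and 5.06 against 5.08 and 4.92. Cre-GFP 1 was the highest and the other 3 arrays lay between 4.92 and 5.08, for a difference of 0.20 ± 0.14 (0.057 without Cre-GFP 1). In the same arrays 6 of the 9 measured B lineage markers had both Cre-GFP arrays below both control arrays (1841 of all 12394 genes). The 9 summed to 29065 to 29766 in Cre-GFP and 34275 to 39774 in control. The brightest of them, Igll1 and Vpreb1, weighed most in that sum and differed by −0.19 ± 0.10 and −0.23 ± 0.17. Rag1 went the other way (0.23 ± 0.27). No lymphoid chain showed a difference beyond its error on its brightest probe set apart from Itgb7, whose interval (−0.13 to 0.53) included 0. The part of marker levels in these values was not tested, and in bulk RNA fewer cells of a type and less RNA per cell cannot be told apart.

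Itgam (CD11b), the alpha chain of Mac-1 on neutrophils and macrophages, read 4.0 and 4.15 in the Cre-GFP arrays and 3.95 and 4.04 in the controls. The groups overlapped at a difference of 0.077 ± 0.098, and all 4 values lay between the 7.43 and 10.9 percentile. Itgax (CD11c), the alpha chain of dendritic cells and some macrophages, read 5.76 and 5.69 against 5.58 and 5.68. Its groups did not overlap, but control 2 and Cre-GFP 2 nearly coincided and the difference was 0.096 ± 0.11. Monocyte, macrophage and dendritic markers summed to 4106 to 6044 in Cre-GFP and 1828 to 3576 in control. Of these, 5 of 10 were higher in both Cre-GFP arrays (1883 of all 12394 genes). The brightest, Lyz1, weighed most in that sum and differed by 1.36 ± 0.54. Adgre1 (−0.042), Mrc1 (−0.069) and Cd74 (−0.16) went the other way. Neutrophil markers summed to 3777 to 4497 in Cre-GFP and 1552 to 5239 in control. The brightest, S100a8, weighed most in that sum and read 10.47 and 11.07 in the Cre-GFP arrays against 8.98 and 11.47 in the controls. Here 4 of 10 were higher in both Cre-GFP arrays (1883 of all 12394 genes) and 1 lower (1841 of all). The 4 were Mpo (1.25 ± 0.15), Ctsg (0.99 ± 0.16), Prtn3 (0.70 ± 0.26) and Elane (0.26 ± 0.15). Csf3r (−0.15 ± 0.12) and Camp (−0.12 ± 0.33) went the other way. The interval ran from −0.17 to 0.32 for Itgam and from −0.18 to 0.37 for Itgax. RMA normally compresses differences at such dim values as those of Itgam, so its interval sets no bound on the gene. With dim values raised the Itgam difference was 6.6e-05, again fixed beforehand because all 4 values lay under the floor. Both genes pair with Itgb2, and in the RefSeq gene order Itgax follows Itgam on chromosome 7 with 0 protein-coding genes between them, while Itgal lies 35 protein-coding genes away on that chromosome.

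Itgb2, the beta chain without which Itgal, Itgam and Itgax are not carried to the surface, read 7.09 and 7.40 in the Cre-GFP arrays and 7.17 and 7.92 in the controls. Control 2 stood highest and the other 3 arrays lay together, so the difference of −0.30 ± 0.28 was smaller than the 0.75 between the control arrays. It was 0.080 without control 2 and −0.67 without control 1. The interval (−0.98 to 0.38) was the widest of the members, so Itgb2 was the member these arrays measured least precisely.

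**Figure D3:**
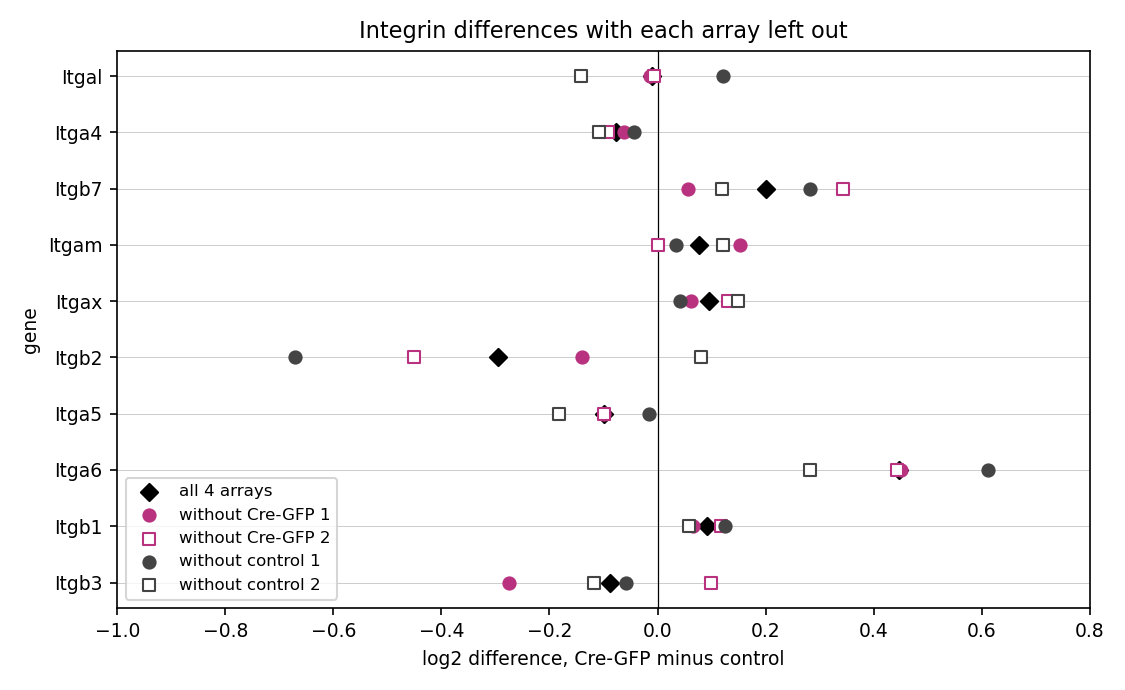
Log2 difference, Cre-GFP minus control (x axis), of the brightest probe set of each integrin gene (y axis) from all 4 arrays (diamonds) and with each array left out in turn. Itga6 stays between 0.28 and 0.61, while Itgb2 runs from −0.67 to 0.080 and Itgal and Itgb3 lie on both sides of 0.

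On 1 probe set per gene, the chain groups were set side by side without a test. The median difference was −0.010 over the 3 lymphoid chains, 0.087 over the 2 myeloid chains and 0.0019 over the 4 stromal-binding chains, against 0.033 over the 10 members and 2.8e-10 over all 12394 genes. Regardless of sign, the median size was 0.094 over the members and 0.10 over all genes. The stromal-binding chains ran from −0.099 (Itga5) to 0.45 (Itga6), so their mean difference was 0.088 despite that median. With Itga4 moved to them their median became −0.076 and the lymphoid median 0.095. Leaving out single arrays gave −0.029 to 0.11 for the stromal-binding median (0.11 without Cre-GFP 2) and −0.11 to 0.12 for the lymphoid median (0.12 without control 1, −0.11 without control 2). The myeloid median ran from 0.038 to 0.14 (0.038 without control 1, 0.14 without control 2). The mean level of the stromal-binding chains was 7.45 and 7.34 in the Cre-GFP arrays and 7.38 and 7.23 in the controls, and that of the myeloid chains 4.88 and 4.92 against 4.77 and 4.86. The lymphoid mean was 5.81 and 5.72 in the Cre-GFP arrays and 5.80 and 5.64 in the controls, where the groups overlapped. The classes hold 2 to 4 genes each, and differences between them were not tested. Of the 19 probe sets, 6 were higher in both Cre-GFP arrays (15.4% of all probe sets) and 3 lower in both (14.6% of all), so the groups did not overlap for 9 (30.0% of all). On 1 probe set per gene they did not overlap for 5 of the 10 members, against 30.0% of all genes. In 13 of the 19 the gap between arrays of 1 group was larger than the difference between groups, as it was in 16344 of all 20393.

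Of the 16 other integrin chains listed, 11 were measured on 21 probe sets, 2 of which were higher at an unadjusted p under 0.05 (2.36% of all probe sets) and 0 lower (2.42% of all), with none past the threshold (lowest adjusted p = 0.75 in limma). Both belonged to Itgb5, the beta-5 chain of a vitronectin receptor, whose probe set 1417533_a_at read 6.11 and 5.99 against 5.62 and 5.62. All 4 Itgb5 probe sets were higher in both Cre-GFP arrays, by 0.42 ± 0.11, 0.24 ± 0.12, 0.27 ± 0.098 and, on the brightest, 0.12 ± 0.16. Itgav, the alpha chain that pairs with Itgb3 and Itgb5, read 10.17 and 10.70 against 10.80 and 10.91 on its brightest probe set, lower in both Cre-GFP arrays by −0.42 ± 0.22. Its other 2 probe sets differed by −0.067 and −0.071. Itga3, a laminin receptor chain, differed by −0.21 ± 0.14 on its brightest probe set and by 0.13 ± 0.17 and 0.042 ± 0.12 on the others. The Itgb5 and Itgav values thus lay on opposite sides of 0, and none of them passed over all probe sets.

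Genes that activate integrins or tie them to the cytoskeleton were measured for 33 of 39 symbols. Of the 33, taken at 1 probe set per gene, 2 were higher at an unadjusted p under 0.05 (2.18% of all genes) and 2 lower (2.38% of all), the list median was −0.054, and none passed over all probe sets (lowest adjusted p = 0.72 in limma). Cytip, a scaffold that binds cytohesin-1 and restrains adhesion through Itgal with Itgb2, read 11.31 and 10.998 in the Cre-GFP arrays and 11.83 and 12.34 in the controls. Both Cre-GFP arrays were lower, by −0.93 ± 0.22 (1.91-fold), and its second probe set differed by −0.96 ± 0.28. Pxn (paxillin), the focal adhesion adaptor that also binds the Itga4 tail, read 11.92 and 11.85 against 11.56 and 11.30, a difference of 0.46 ± 0.15. Another Pxn probe set differed by 0.48 ± 0.17 and the dimmest by 0.065 ± 0.14. Ptk2b (Pyk2), an adhesion kinase of blood cells, differed by −0.61 ± 0.23. Cib1, which binds the Itga2b tail, differed by −0.40 ± 0.18, and by −0.050 ± 0.13 on its dimmer probe set. Parvb, a parvin that links integrin-linked kinase to actin and the other gene under an unadjusted p of 0.05, differed by 0.36 ± 0.11 and was named after its values were seen. These differences were of either sign and belong to genes picked for the smallest p in the list. The integrin chains, which are not in that list, stayed within 0.45 on their brightest probe sets.

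Integrin ligands were measured for 25 of 26 symbols, with a median of −0.049 and 0 at an unadjusted p under 0.05 on any of 40 probe sets. Vcam1, the ligand of Itga4 with Itgb1, read 6.83 and 6.91 in the Cre-GFP arrays and 6.93 and 6.86 in the controls, a difference of −0.024 ± 0.13. Icam2, a ligand of Itgal with Itgb2, differed by 0.20 ± 0.26, the laminin chain Lamc1 by −0.023 ± 0.17 and Thy1, a surface glycoprotein that binds Itgam with Itgb2 and Itgav with Itgb3, by −0.23 ± 0.16. Of these 4 ligands only Thy1 differed by more than its error, and its interval (−0.62 to 0.17) included 0.

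**Figure D4:**
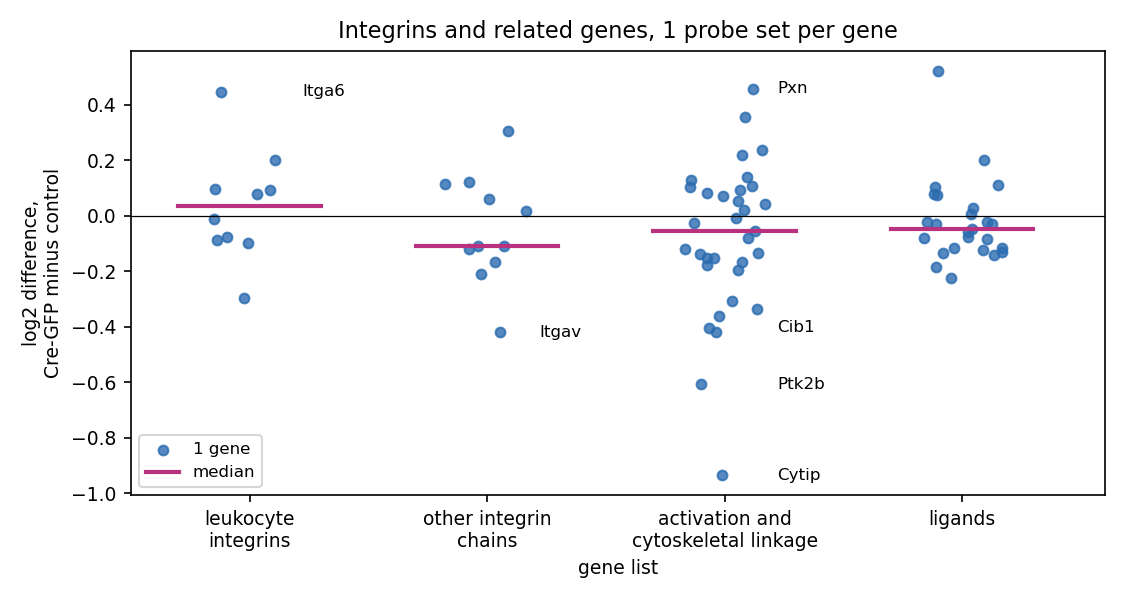
Log2 difference, Cre-GFP minus control (y axis), of each measured gene (1 point, its brightest probe set) in 4 gene lists (x axis), with the list median as a line. The medians lie between −0.11 and 0.033, and Cytip at −0.93 is the lowest point.

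Several facts of the whole set of arrays stand beside these values. Median intensities were 85.1 to 87.7 on the 4 arrays. Pan-leukocyte markers were lower in both Cre-GFP arrays for 4 of 5 genes (1841 of all 12394 genes), and Ptprc (CD45) was the exception at 0.14 ± 0.20. Their summed intensity was 9141 to 9611 in Cre-GFP against 11537 to 13203 in control. The brightest, Laptm5, weighed most in that sum and differed by −0.27 ± 0.15. Of 10 stroma and endothelium markers, 1 was higher (1883 of all 12394 genes) and 1 lower (1841 of all) without overlap, which are counts near the background. Their median difference was 0.011, and 5 of 10 lay under the 20th percentile on every array (Cdh5, Col1a1, Col3a1, Cxcl12 and Tek). The 10 summed to 1598 to 1759 in Cre-GFP and 1960 to 2175 in control. Most of that sum was Vim (vimentin), which leukocytes also express, and the other 9 summed to 383 to 427 in Cre-GFP and 386 to 409 in control. Megakaryocyte and platelet markers, of which 4 of 6 were measured, summed to 207 to 215 in Cre-GFP and 204 to 223 in control, with Ppbp under the 20th percentile. Kmt2a (MLL) read 8.73 and 8.05 in the Cre-GFP arrays and 8.66 and 8.47 in the controls, which checks nothing about the fusion if its probes lie outside the construct. Hoxa9, a known MLL fusion target, differed by 1.26 ± 0.18 on its brighter probe set (adjusted p = 0.31 in limma) and by 0.45 ± 0.19 on the other. Meis1 and Aff1 were the other genes set out as checks. Meis1 read 7.69 and 7.54 against 5.84 and 5.94, a difference of 1.73 ± 0.14 (adjusted p = 0.19 in limma). Aff1 differed by −0.26 ± 0.27 on its brightest probe set and by −0.17 ± 0.13 and −0.043 ± 0.094 on the others. None of these genes passed over all probe sets, and whether the fusion was active was not tested.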

How the data were processed

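Total RNA was amplified and labelled with a NuGen Ovation kit, per the labels' protocols, and hybridized to Affymetrix mouse arrays. The authors deposited 1 table of RMA intensity values on a linear scale per the submitters' processing notes, with no version stated there. RMA normally equalizes the arrays and thereby hides any shift common to most genes, and it compresses differences of dim genes. Values were log2 transformed without further normalization. The platform annotation gave 1 symbol for 20393 of 22690 probe sets, several for 691 and none for 1606. Groups were compared per probe set with limma 3.58.1 in R 4.3.3 (lmFit, eBayes with intensity trend, two-sided), adjusted by Benjamini-Hochberg over all 20393, threshold 0.05. The procedure was tested on simulated data with less noise than the pooled spread of the real arrays and with changes far larger than the member differences. That test therefore does not show what these arrays can detect at the sizes reported. The limma intervals are at the 95% level. Where 1 value per gene was needed, the probe set with the highest mean was used. Endings _s, _x and _a mark probe sets that can match several transcripts (4 members). Scan batches and detection calls were not used here, so dim values were not shown to lie above background. Precision is limited by the number of arrays. From the related lists, up to 4 genes with the smallest p at or above the median level of all genes (6.85) were named. The members, chain groups, lists and alternatives were chosen with earlier results of these data known. Leaving out each array, a dim filter, a floor, renormalization, an offset, no trend, a replicate block, other feature sets and other chain groupings were tried.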

Additional observations from a re-analysis of the deposited data

How the results depend on the processing

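No member passed the adjusted threshold in any setting that used all 4 arrays (limma, lowest adjusted p = 0.58). In every setting tried, 11 of 19 probe sets kept their sign. That count was partly fixed beforehand by the floor at the 20th percentile. The 6 probe sets under it on every array all became 6.6e-05, so positive ones counted as kept and negative ones as reversed. Over all probe sets the count past the threshold was 0 to 25 when single arrays were left out, 25 without control 1 and 1 without control 2; in these fits the lone array is assumed to vary like the other group. The 1 member at an unadjusted p under 0.05 became 1 to 3 without single arrays, 0 with 1 probe set per gene, 0 without the dimmest 40% (8 member probe sets left), 1 with dim values raised (Itga6 1422445_at in place of Itga4 1427615_at), 2 after another quantile normalization and 3 with no intensity trend. With the replicate number as a block it was 3 (Itga4 1427615_at and both Itga6 probe sets), and the count over all probe sets went from 976 to 1547, with 0 past the adjusted threshold. Deviations of same-numbered arrays correlated at 0.36, but the labels do not say that a number marks a shared source. Raising dim values to the 20th percentile turned Itga4 1427615_at, Itgam and Itgb1 1426919_at, 1426920_x_at, 1427771_x_at and 1438119_at alike to 6.6e-05. Leaving out single arrays gave ranges on both sides of 0 for Itgal (−0.14 to 0.12), Itga4 1450155_at (−0.23 to 0.28), Itgb2 (−0.67 to 0.080), Itgb3 (−0.27 to 0.099) and Itgb1 1426918_at (−0.62 to 0.083), 1426919_at (−0.18 to 0.0081) and 1426920_x_at (−0.25 to 0.12). The stromal-binding median ran from −0.029 to 0.11 in these fits and was −0.076 with Itga4 included. The cause of these changes between settings was not tested.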

Other observations

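Other genes with integrin names outside the lists of chains, chosen after their values were seen, gave these readings. Itgb3bp, which binds the beta-3 tail and is also a centromere protein, read 4.69 and 4.83 in the Cre-GFP arrays and 5.35 and 5.13 in the controls on 1420665_at, a difference of −0.48 ± 0.12 (adjusted p = 0.73 in limma). Its other probe sets differed by −0.39 ± 0.16 and 0.025 ± 0.12. Itgb2l, a beta-2-like chain of the mouse, differed by −0.036 ± 0.11, and Itgb1bp1, which binds the beta-1 tail and holds integrins inactive, by −0.14 ± 0.32 with readings from 5.93 in control 1 to 6.85 in control 2.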
